A study of Mus musculus with 18 samples.

Results

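Presynaptic vesicle and active zone genes encode the proteins that store neurotransmitter in vesicles, hold the vesicles at the release site and fuse them with the membrane. A list of 43 such genes was followed in sorted neurons of the mouse neocortex, out of 24015 genes in the count table. The members were chosen by name and divided by role into 12 genes of vesicle proteins, 18 genes of the fusion machinery and its calcium sensors, 10 genes of the active zone scaffold and 3 vesicular glutamate transporters. All 43 were in the table, and all 43 passed the filter on low counts in both comparisons.

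Dissociated cortices of mice at postnatal day 5 were sorted for tdTomato, and RNA of some 25000 positive cells was sequenced for each library. Layer 6 neurons of Tbr1 null mice (null L6), layer 5 neurons of wild-type mice (WT L5) and layer 6 neurons of wild-type mice (WT L6) gave 4 libraries each, so 12 of the 18 samples of the series were used, and the 6 ChIP-seq samples were not. Tbr1 encodes a T-box transcription factor found in layer 6 corticothalamic neurons, and the title of the series asks how its dose shapes the connections of layer 6. The sample labels restrict the null genotype to layer 6, but the design text of the series names a constitutive one. The sources used here do not name the promoter behind tdTomato, or behind a Cre if one was used.

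An action potential opens calcium channels at the active zone, a protein scaffold in which RIM, RIM-binding protein, bassoon, piccolo, ELKS and liprin proteins keep docked vesicles close to those channels. Munc13 proteins prime the vesicles, synaptotagmins such as Syt1 sense calcium, and complexins clamp and promote fusion. The SNARE proteins synaptobrevin, syntaxin and SNAP-25 drive fusion. Cortical excitatory neurons fill their vesicles through vesicular glutamate transporters, and in the cortex the transporter VGLUT1 becomes more abundant after birth while VGLUT2 is the main transporter of thalamic axons. Several proteins of the list come as paralogs whose use differs between neuron types and ages, such as synapsins, SV2 proteins and synaptotagmins.

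Library totals were 41091165 to 47540669 counts in null L6, 27465597 to 39703820 in WT L5 and 32982957 to 54899002 in WT L6. Levels are given as CPM, a gene's share of the scaled total of its library, on 1 scale for all 12 libraries. Tbr1 stood at 91.6, 97.4, 94.4 and 95.5 CPM in null L6, at 45.7, 40.2, 43.1 and 41.5 CPM in WT L5 and at 169, 171, 181 and 182 CPM in WT L6. It was thus lower, but not absent, in every null library. The labels do not say whether the libraries of a group are from different animals, and the p-values below therefore reflect the spread among libraries, which may be technical. Libraries lay closest in pairs. Chi-square per degree of freedom was 9.0 to 10.8 within pairs and 23.1 to 61.8 across pairs in null L6, 1.33 to 1.4 and 2.97 to 3.41 in WT L5, and 3.26 to 5.18 and 10.9 to 19.9 in WT L6. The pairs were replicates 1 with 2 and 3 with 4 in both layer 6 groups, whose label codes share a digit, and 1 with 3 and 2 with 4 in layer 5. All layer 6 libraries are sequencing batch A and the layer 5 libraries are batches B and C, so layer and batch cannot be told apart. Of 10 markers of layer 5 subcerebral neurons, 4 were higher and 6 lower in the libraries labelled WT L5 than in WT L6, among those lower Fezf2 with 18.5 ± 0.64 CPM in WT L5 and 66.1 ± 3.0 CPM in WT L6 (SD, n = 4 each). The summed level of that list was 1200 to 1251 CPM in null L6, 498 to 514 CPM in WT L5 and 1018 to 1069 CPM in WT L6. Of 11 markers of layer 6 corticothalamic neurons, 1 was higher and 10 were lower in WT L5 than in WT L6, with sums of 527 to 542 CPM in WT L5 and 1002 to 1058 CPM in WT L6.

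The sex of the mice also differed between the groups, by Xist, the RNA of the inactive X chromosome, and the summed Y-linked genes Ddx3y, Eif2s3y, Kdm5d and Uty. In null L6, Xist was at 262 to 299 CPM and the Y-linked sum at 0.044 to 0.261 CPM in all libraries. All WT L5 libraries held both, with Xist at 39.5 to 41.1 CPM and the Y-linked sum at 114 to 128 CPM. In WT L6, replicates 1 and 2 had Xist at 0.458 and 0.448 CPM and Y-linked sums of 188 and 194 CPM, whereas replicates 3 and 4 had Xist at 289 and 287 CPM and Y-linked sums of 0.0654 and 0.127 CPM. The WT L6 pairs therefore hold different animals, and WT L6 replicates 3 and 4 are the ones that match the null libraries in sex.

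The promoters of 4 members are shown as examples, and no result on levels rests on them. Sv2b, Rimbp2 and Slc17a7 were lower in null L6 in a way that also held with the libraries of each pair summed, and Ppfia3 had the highest fold change of the active zone genes between layers. The sequences are RefSeq's, build GRCm38.p6, 250 bases before to 50 bases after a start site. They were found for 33 of the 43 genes, with 42 start sites in all. Doc2b and Syt7, whose calls in null L6 also held with the libraries of each pair summed, were not among those 33 genes. Capitals mark a motif: the T-box core GGTGTGA in Sv2b and TTCAGCACC, the left part of the element bound by the neuronal repressor REST, in Ppfia3. Of the 4 start sites of Sv2b, the one with the T-box letters is shown.
Sv2b, chr7:75302560-75302859, minus strand: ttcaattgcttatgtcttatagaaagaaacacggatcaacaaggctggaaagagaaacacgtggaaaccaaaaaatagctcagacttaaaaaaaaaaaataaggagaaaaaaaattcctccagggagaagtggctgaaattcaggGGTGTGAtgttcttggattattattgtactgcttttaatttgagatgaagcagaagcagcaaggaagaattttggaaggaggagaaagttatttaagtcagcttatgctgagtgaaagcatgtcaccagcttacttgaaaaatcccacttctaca
Rimbp2, chr5:128953437-128953736, minus strand: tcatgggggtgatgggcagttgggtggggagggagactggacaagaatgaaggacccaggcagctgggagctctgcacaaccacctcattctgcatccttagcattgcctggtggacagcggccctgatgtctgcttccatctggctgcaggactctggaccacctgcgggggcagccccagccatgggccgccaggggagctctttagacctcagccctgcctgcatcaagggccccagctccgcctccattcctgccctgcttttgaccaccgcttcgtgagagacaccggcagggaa
Slc17a7, chr7:45163671-45163970, plus strand: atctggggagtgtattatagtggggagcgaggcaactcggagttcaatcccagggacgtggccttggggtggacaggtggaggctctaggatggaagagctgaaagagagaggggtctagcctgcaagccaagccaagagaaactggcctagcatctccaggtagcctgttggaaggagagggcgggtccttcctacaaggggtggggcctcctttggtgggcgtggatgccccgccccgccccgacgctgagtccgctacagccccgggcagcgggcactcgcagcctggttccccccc
Ppfia3, chr7:45366970-45367269, minus strand: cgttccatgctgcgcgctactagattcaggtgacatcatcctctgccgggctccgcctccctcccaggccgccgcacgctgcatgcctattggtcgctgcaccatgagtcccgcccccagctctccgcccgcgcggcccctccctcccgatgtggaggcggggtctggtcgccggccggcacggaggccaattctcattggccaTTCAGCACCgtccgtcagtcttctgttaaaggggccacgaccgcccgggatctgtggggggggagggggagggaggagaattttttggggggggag

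Motifs were searched on both strands, and none holds the letters of another. GGTGTGA lay in 1 of 42 member promoters, that of Sv2b 105 bases before the start, and in 3.98% of all 32851 promoters in the RefSeq table. TTCAGCACC lay in 3 of 42 member promoters, those of Ppfia3, Unc13a and Syn1, and in 0.371% of all promoters. The cAMP response element TGACGTCA lay in 1 of 42, that of Syn1, and in 1.79% of all. Member promoters had a median GC content of 61.3% and a median of 15.5 CpG sites, against 52.7% and 7 over all promoters. These matches describe the letters in the windows and are not evidence of binding.

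In null against WT L6 neurons, 9 members rose and 6 fell, mostly by small amounts. The calcium sensor gene Doc2b rose by 1.69-fold and the rare VGLUT3 gene Slc17a8 by 2.31-fold. The vesicle protein genes Sv2b and Sv2c, the scaffold gene Rimbp2, the calcium sensor gene Syt7 and the VGLUT1 gene Slc17a7 were among those that fell. A call means an adjusted p under 0.05 in edgeR's quasi-likelihood test with Benjamini-Hochberg adjustment over all genes tested. The 15 calls among 43 members stand beside 14.2% of 14588 genes called in all. The 9 that rose stand beside 7.31% of all genes called higher, and the 6 that fell beside 6.86% called lower. In 19 of the 43 the null and WT libraries did not overlap, which held for 19.9% of all genes. The median log2 fold change was 0.05 over the members and 0.00 over all genes tested, and the median absolute log2 fold change was 0.12 over the members and 0.09 over all. Well measured genes are called more often, and among genes with a mean of at least 10 CPM the share called was 15.9%, against 13 of 39 members. With the libraries of each pair summed, 5 members kept their call (Doc2b, Sv2b, Slc17a7, Rimbp2 and Syt7) and 3.15% of 15230 genes were called. Against WT L6 replicates 3 and 4 alone, which match the null libraries in Xist and Y-linked RNA, 11 members were called. Of these 5 were higher and 6 lower, and 1506 of 14804 genes were called in all. The 4 calls lost in that fit, which has fewer libraries, were those on Syt1, Syt4, Cplx1 and Rims1, at edgeR adjusted p values of 0.0558, 0.053, 0.071 and 0.124. Each library is a pool of cells, so fewer cells of a type and less RNA per cell cannot be told apart.

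**Figure D1:**
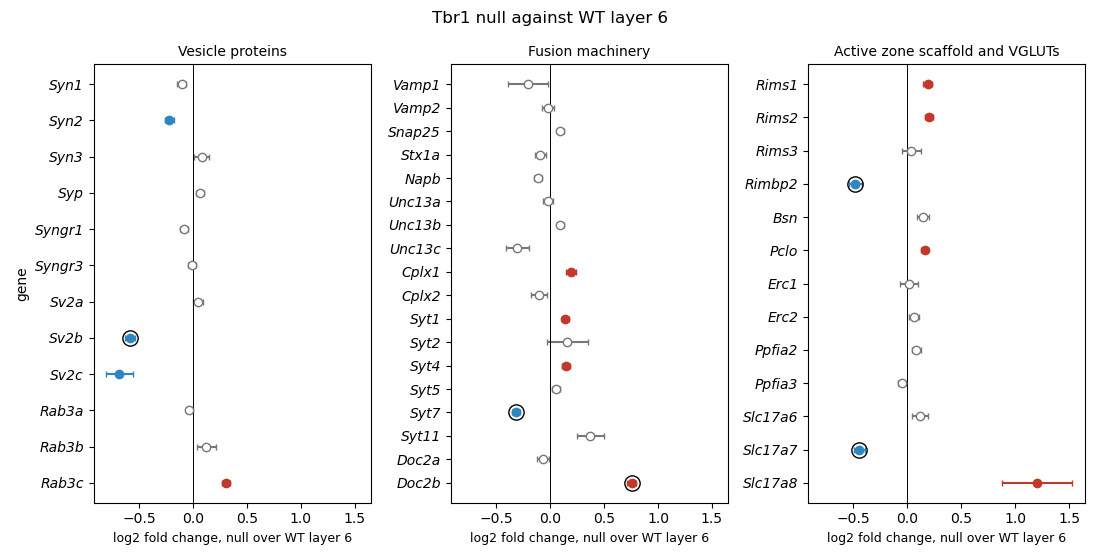
Log2 fold change of each of the 43 members between null and WT L6 (x axis), with genes grouped by role down the y axis and bars showing the standard error. Filled red points were called higher (9), filled blue points lower (6) and open grey points were not called (28), and a black ring marks the 5 members still called with the libraries of each pair summed.

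Among the 12 genes of vesicle proteins, 1 rose, 3 fell and 8 were not called. The SV2 genes encode vesicle glycoproteins that regulate release, and Sv2b stood at 72.9, 72.2, 65.6 and 67.7 CPM in null L6, against 110.1, 106, 100.2 and 99.9 CPM in WT L6. The null libraries lay well below the WT ones with no overlap, and the log2 fold change was -0.58 ± 0.045 (standard error), with an edgeR adjusted p of 1.92e-06. Its paralog Sv2c had 4.92, 3.5, 3.58 and 3.65 CPM in null L6 and 6.66, 6.33, 6.35 and 5.82 CPM in WT L6. Its groups did not overlap either, although null replicate 1 lay well above the other 3, and its log2 fold change was -0.68 ± 0.12 (edgeR adjusted p 0.00206). With the libraries of each pair summed the Sv2c call was lost at an adjusted p of 0.0566. Sv2a, the most widely expressed paralog, had 125, 134, 139.8 and 143 CPM in null L6 and 137, 133, 129 and 125 CPM in WT L6. Its groups overlapped, and its log2 fold change was 0.05 with a 95% interval of -0.04 to 0.13.

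The synapsins tether vesicles in the reserve pool, and 1 of the 3 synapsin genes was called. Syn2 had 71.2, 72.6, 76.7 and 77.2 CPM in null L6 and 90.9, 88.9, 83.3 and 83.3 CPM in WT L6, with no overlap and a log2 fold change of -0.22 ± 0.042 (edgeR adjusted p 0.00326). Syn1 had a log2 fold change of -0.11 with an interval of -0.20 to -0.02 and was not called (adjusted p 0.158). Syn3 had 80.5 and 84 CPM in null replicates 1 and 2 and 67.1 and 66.6 CPM in replicates 3 and 4, against 66.1 to 73.6 CPM in WT L6, so the first null pair lay above all WT libraries and the second pair among them. Rab3c, a small GTPase of the vesicle surface, was the vesicle gene that rose, with 324, 321, 298 and 297 CPM in null L6 and 239.9, 245, 263 and 256 CPM in WT L6. Its groups did not overlap and its log2 fold change was 0.31 ± 0.041 (edgeR adjusted p 0.000207). Its paralogs Rab3a and Rab3b had log2 fold changes of -0.03 and 0.12 and were not called. Syngr3, encoding a synaptogyrin of the vesicle membrane, had the log2 fold change closest to 0 of the vesicle genes, -0.01 with an interval of -0.07 to 0.06.

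Among the 18 genes of the fusion machinery, 4 rose, 1 fell and 13 were not called. Doc2b encodes a calcium sensor with high affinity that is linked to spontaneous and asynchronous release. It had 34.6, 32.5, 33.3 and 33.1 CPM in null L6 and 19.8, 20.4, 19.8 and 19.1 CPM in WT L6. The groups were far apart relative to their spread, with a log2 fold change of 0.76 ± 0.045 and an edgeR adjusted p of 1.83e-07. Doc2b was the 1 member called in every alternative run, including a test against a fold of 1.5. Its paralog Doc2a, with 18.4 ± 0.40 CPM in null L6 and 19.3 ± 1.1 CPM in WT L6, was not called (log2 fold change -0.07, interval -0.18 to 0.04).

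Syt7, the synaptotagmin of slow, high-affinity calcium sensing in asynchronous release and facilitation, had 118, 118, 107 and 110.0 CPM in null L6 and 142, 143, 139 and 139 CPM in WT L6. No null library reached a WT library, and the log2 fold change was -0.32 ± 0.037 (edgeR adjusted p 6.15e-05). Syt1, the fast calcium sensor, had 259, 267, 247 and 259.7 CPM in null L6 and 231, 233, 233 and 238 CPM in WT L6. Its groups did not overlap, and it rose by 0.14 ± 0.031 on the log2 scale (edgeR adjusted p 0.00846). Syt4, a synaptotagmin that does not bind calcium like Syt1 and sits on other secretory vesicles as well, had 857, 785, 762 and 753 CPM in null L6 and 725, 719.8, 699 and 705 CPM in WT L6. It rose by 0.15 ± 0.038 (edgeR adjusted p 0.019), with null replicate 1 the highest. Neither Syt1 nor Syt4 was called with the libraries of each pair summed, at adjusted p values of 0.251 and 0.252. The Syt4 call was also lost without WT L6 replicate 3 (adjusted p 0.055) and with only WT L6 replicates 1 and 2 (edgeR adjusted p 0.118). It was lost in the authors' normalized table as well (limma adjusted p 0.1).

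Syt11, a synaptotagmin without calcium binding that is linked to vesicle recycling, differed within the null group. It had 492 and 484 CPM in null replicates 1 and 2 and 314 and 317 CPM in replicates 3 and 4, against 315, 300.3, 312 and 313 CPM in WT L6. The first null pair stood well above all other libraries and the second pair lay with WT, so the gene was not called (log2 fold change 0.37 ± 0.13, edgeR adjusted p 0.0738). With null replicates 1 and 2 alone, the log2 fold change was 0.65, and the gene was called without null replicate 3 or 4 (edgeR adjusted p 0.0162 and 0.0192). Syt5 and Syt2 were not called, with log2 fold changes of 0.05 and 0.16.

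Complexin genes differed little. Cplx1 had 83.5, 94.5, 82.8 and 87.2 CPM in null L6 and 77, 73.4, 78 and 75.8 CPM in WT L6, with a log2 fold change of 0.19 ± 0.044 (edgeR adjusted p 0.00981). The call on Cplx1 was lost with the libraries of each pair summed (adjusted p 0.123) and in limma with pairs as a random block (limma adjusted p 0.0574). Cplx2 had 209, 216, 175 and 167 CPM in null L6 and 223, 213, 197 and 192 CPM in WT L6, and its groups overlapped. The SNARE genes Vamp1, Vamp2, Snap25 and Stx1a, the SNARE recycling gene Napb and the 3 Munc13 genes were not called. The priming factor gene Unc13a had the log2 fold change closest to 0 of the fusion genes, -0.02 with an interval of -0.10 to 0.07. Snap25, Napb and Unc13b had groups that did not overlap, with log2 fold changes of 0.09, -0.11 and 0.10.

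Among the 10 active zone genes, 3 rose, 1 fell and 6 were not called. The 3 that rose were Rims1 and Rims2, whose RIM proteins recruit calcium channels and Munc13, and Pclo, which encodes piccolo. Rims1 had 50.4, 51.6, 48.3 and 47.4 CPM in null L6 and 41.8, 42.1, 45.6 and 44 CPM in WT L6, a log2 fold change of 0.19 ± 0.043 (edgeR adjusted p 0.011). Rims2 had 66.1, 66.4, 65.3 and 63.3 CPM in null L6 and 53.1, 59.6, 56.8 and 57.9 CPM in WT L6, a log2 fold change of 0.20 ± 0.041 (edgeR adjusted p 0.00483). Pclo had 111, 112, 107 and 104 CPM in null L6 and 95.8, 96.6, 96 and 99 CPM in WT L6, a log2 fold change of 0.16 ± 0.033 (edgeR adjusted p 0.00438). In each of the 3 the lowest null library was above the highest WT library, by a small margin, and none was called with the libraries of each pair summed.

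Rimbp2, which encodes the RIM-binding protein that links RIM to calcium channels, went the other way. It had 14.2, 14.5, 15.2 and 14.9 CPM in null L6 and 21.7, 21.3, 19.2 and 19.9 CPM in WT L6. The groups were clearly separate, with a 1.40-fold lower level in null, a log2 fold change of -0.48 ± 0.058 and an edgeR adjusted p of 8.77e-05. Bsn, encoding bassoon, had 103, 124, 107 and 106 CPM in null L6 and 101, 101, 94.7 and 102 CPM in WT L6. The groups did not overlap, but the gene was not called (log2 fold change 0.14 ± 0.053, adjusted p 0.095). Erc1, the ELKS gene with the log2 fold change closest to 0 of the group (0.02, interval -0.15 to 0.18), split both groups by pair. It had 198, 197, 167 and 164 CPM in null L6 and 199, 199.6, 158 and 162 CPM in WT L6, so replicates 1 and 2 were high and 3 and 4 low in each. Erc2, Rims3 and the liprin genes Ppfia2 and Ppfia3 were not called.

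The vesicular glutamate transporter genes went in different directions. Slc17a7, which encodes VGLUT1, had 53.5, 56.2, 55.5 and 59.3 CPM in null L6 and 81.2, 81, 72.3 and 71.2 CPM in WT L6. All null libraries were below all WT libraries, and Slc17a7 was 1.36-fold lower, a log2 fold change of -0.44 ± 0.052 (edgeR adjusted p 6.7e-05). Slc17a6, which encodes VGLUT2, had 44.3, 41.8, 55.8 and 51.5 CPM in null L6 and 45.2, 46.4, 43.1 and 43.3 CPM in WT L6. The first null pair lay within or just under the WT range and the second pair above it, and the gene was not called (log2 fold change 0.12, interval -0.03 to 0.27, adjusted p 0.36).

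Slc17a8, which encodes VGLUT3, was rare, at 0.61, 1.25, 1.1 and 1.16 CPM in null L6 and 0.541, 0.537, 0.218 and 0.488 CPM in WT L6, with as few as 10 counts in a library. The groups did not overlap, and its log2 fold change was 1.20 ± 0.33 (edgeR adjusted p 0.0256). The call was lost with the replicate number as a block (adjusted p 0.0693) and with the libraries of each pair summed (adjusted p 0.141). It was lost without null replicate 2, 3 or 4 or WT L6 replicate 3 (adjusted p 0.0552 to 0.0752). Limma with pairs as a random block lost it too (limma adjusted p 0.15), as did fits with only replicates 1 and 2 of null L6 or of WT L6 (edgeR adjusted p 0.115 and 0.131). The ratio of Slc17a7 to Slc17a6 CPM, in which gene lengths cancel between groups, was 1.21, 1.34, 0.994 and 1.15 in null L6 and 1.79, 1.75, 1.68 and 1.64 in WT L6. Every null ratio was below every WT ratio.

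**Figure D2:**
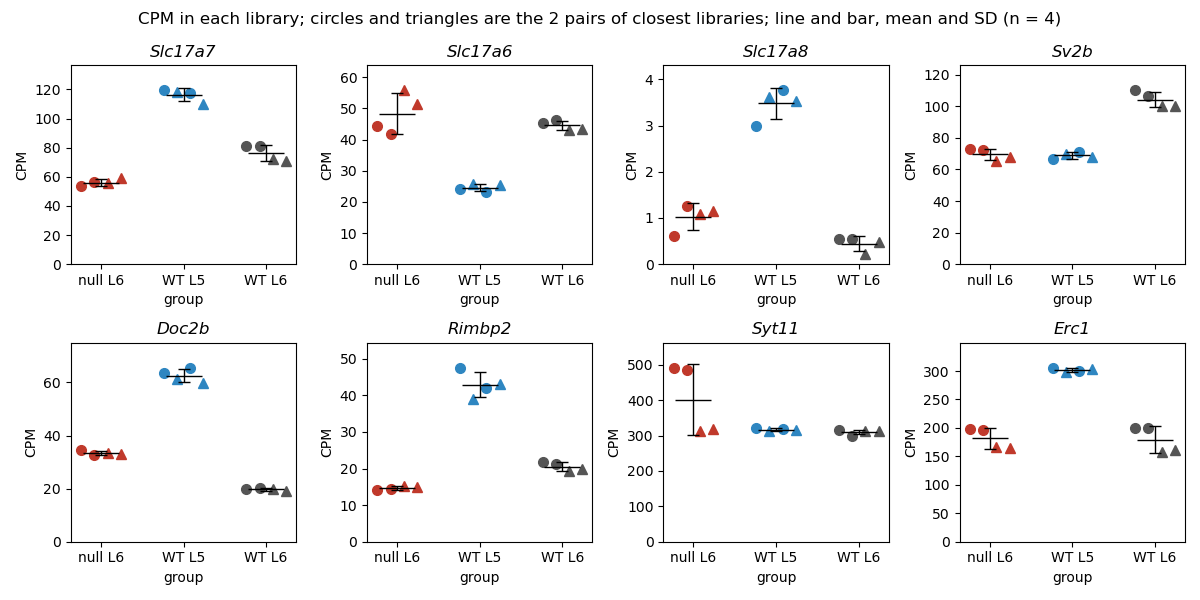
CPM of 8 members in each library (y axis from 0, 1 panel per gene) in null L6, WT L5 and WT L6, with circles and triangles for the 2 pairs of libraries and a line and bar for the mean and SD of 4 libraries. Doc2b, Sv2b, Rimbp2 and Slc17a7 separate null from WT L6, while Syt11 is high in 1 pair of null libraries (492 and 484 CPM) and Erc1 splits both layer 6 groups by pair.

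Markers of other cells were compared beside these members. Of 15 astrocyte markers, 6 were higher and 1 lower in null than in WT L6, with sums of 1361 to 1441 CPM in null L6 and 1160 to 1335 CPM in WT L6. Of 15 interneuron markers tested, 1 was higher and 5 lower. The interneuron list summed to 477 to 507 CPM in null L6 and 516 to 559 CPM in WT L6. Pvalb of that list was at 0 in all WT L6 and 3 of 4 null libraries, but others were present in every library. Lhx6 was at 87.9 to 95 CPM in null L6 and 94.7 to 100.3 CPM in WT L6, and Gad1 at 32.6 to 41.7 and 42.7 to 51.2 CPM. Of 12 markers of dividing and progenitor cells, 5 were higher and the others not called, with sums of 1168 to 1191 CPM in null L6 and 1071 to 1085 CPM in WT L6. Of 11 oligodendrocyte lineage markers tested, 2 were higher and 6 lower (294 to 306 CPM in null L6, 312 to 332 CPM in WT L6). Of 13 vascular markers, 2 were lower (365 to 387 CPM in null L6, 400 to 410 CPM in WT L6), and none of 13 microglia markers was called, with 2 at an unadjusted p under 0.05. Of 11 corticothalamic markers, 1 was higher and 7 lower (743 to 793 CPM in null L6, 1002 to 1058 CPM in WT L6). That list holds Tbr1 itself, which is 1 of the 7 and part of the difference in the sums. Of 10 layer 5 subcerebral markers 5 were higher and the others not called. Of 10 pan-neuronal genes, 2 were lower and the others not called, with overlapping sums of 9005 to 9305 CPM in null L6 and 9127 to 9426 CPM in WT L6. The part of these differences in the members' changes was not tested.

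**Figure D3:**
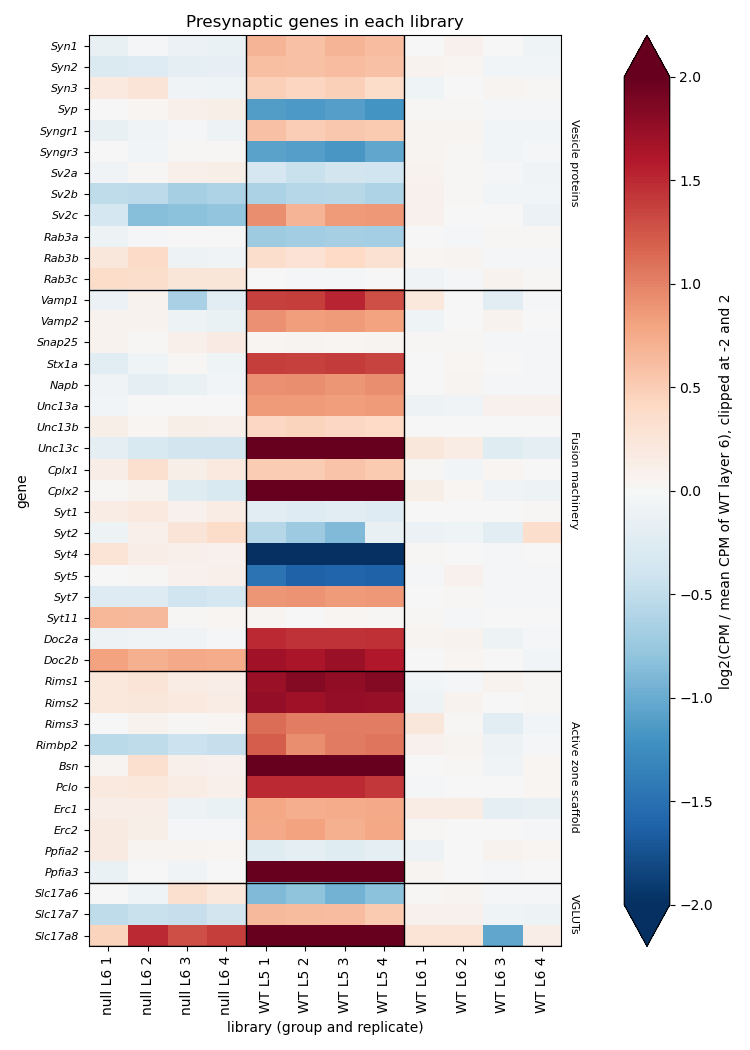
Level of each of the 43 members in each of the 12 libraries, as log2 of CPM over the mean of WT L6 (colour, limited to -2 to 2), with members by role down the y axis and libraries in the order null L6, WT L5, WT L6 across. The layer 5 columns stand out in most genes, while the null columns differ from WT L6 by less, with Syt11 high in 2 null libraries.

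In WT L5 against WT L6 neurons, nearly all members differed, and most were higher in layer 5. The active zone genes Bsn and Ppfia3, the complexin gene Cplx2 and the Munc13 gene Unc13c were over 4-fold higher. The synaptotagmin genes Syt4 and Syt5 and the vesicle membrane genes Syp and Syngr3 were over 2-fold lower. In all, 40 of 43 members were called, beside 85.5% of 14927 genes, so a call alone says little here. Of these, 29 were higher, beside 42.2% of all genes called higher, and 11 lower, beside 43.4% called lower. Over 2-fold, 14 members were higher and 4 lower, beside 18.1% and 9.47% of all genes. Libraries did not overlap in 40 members and in 81.2% of all genes, and with a mean of at least 10 CPM 36 of 39 members and 89.5% of genes were called. The median log2 fold change was 0.64 over the members and -0.01 over all genes, and the median absolute value was 0.85 over the members and 0.60 over all. With the layer 5 libraries of batch B alone (replicates 1 and 2), 40 members and 12223 of 15225 genes were called. With those of batch C alone (replicates 3 and 4), 39 members and 12073 of 15163 genes were called. Each layer 5 pair of closest libraries spans both batches, so these fits use like libraries and do not test the batch. With the libraries of each pair summed, 39 members were called, beside 78.5% of 15633 genes.

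These values depend on the scaling more than those of the null. Scaling the libraries to the summed counts of 10 pan-neuronal genes moved the median log2 fold change of all genes to 0.34. The share of calls that were higher became 68.3%, against 49.3% with the TMM scaling used here. These 10 genes themselves differ between the layers, 4 higher and 6 lower with TMM scaling, so they are not a neutral reference. With pan-neuronal scaling, 41 members were called, 34 higher and 7 lower. Snap25 and Syt11, not called with TMM scaling, were among those higher. Layer 5 libraries also held more signal of glia and vessels: 15 of 15 astrocyte markers were higher, with sums of 7116 to 7158 CPM in WT L5 and 1160 to 1335 CPM in WT L6, and 13 of 13 microglia markers were higher (427 to 441 CPM in WT L5, 142 to 150 CPM in WT L6). Of 12 oligodendrocyte lineage markers tested, 11 were higher and 1 lower, with sums of 1251 to 1264 CPM in WT L5 and 312 to 332 CPM in WT L6. All 13 vascular markers were higher, at 887 to 904 CPM in WT L5 and 400 to 410 CPM in WT L6. Of 12 markers of dividing and progenitor cells, 4 were higher and 5 lower, with sums of 932 to 943 CPM in WT L5 and 1071 to 1085 CPM in WT L6. Neurog2 and Eomes, transcription factors of neuronal progenitors, were among those lower, with 0.77 ± 0.19 and 4.83 ± 0.35 CPM in WT L5 and 26.8 ± 2.6 and 49.9 ± 0.55 CPM in WT L6. Of 10 pan-neuronal genes, 4 were higher and 6 lower, with sums of 7287 to 7339 CPM in WT L5 and 9127 to 9426 CPM in WT L6. Among those lower, Tubb3 had 1739 to 1801 CPM in WT L5 and 3201 to 3376 CPM in WT L6. Among those higher, Map2 had 2113 to 2137 CPM in WT L5 and 1581 to 1691 CPM in WT L6. The part of these cell types in the members' differences was not tested.

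**Figure D4:**
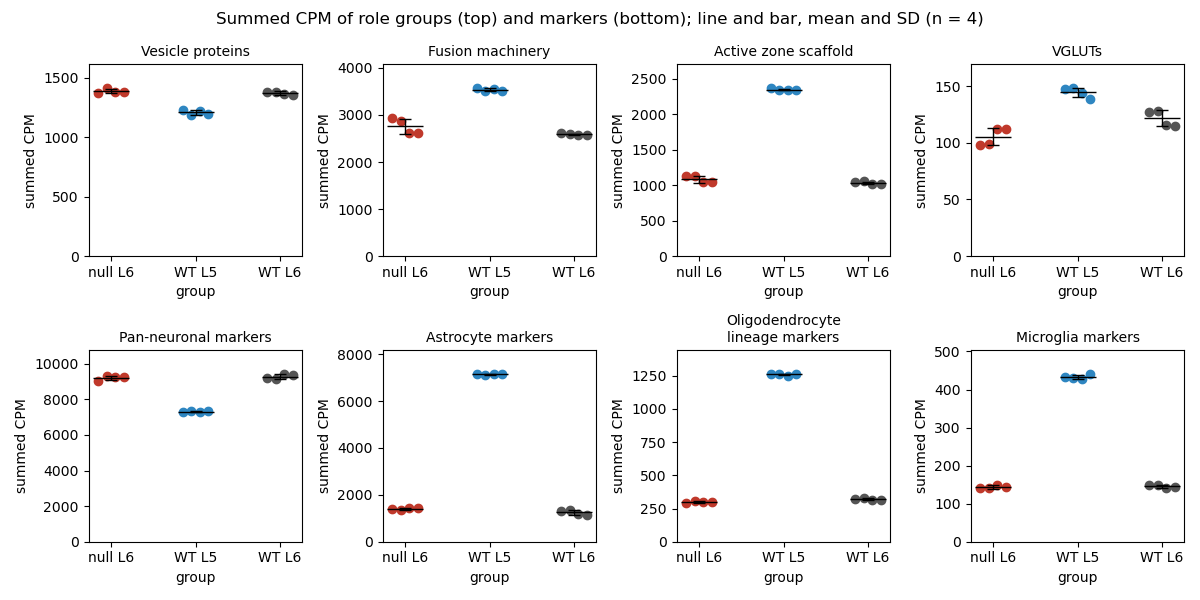
Summed CPM (y axis, from 0) of the genes of each role group and of 4 marker lists in each library of null L6, WT L5 and WT L6. The active zone sum is 2341 to 2368 CPM in WT L5 and 1014 to 1056 CPM in WT L6. The astrocyte, oligodendrocyte lineage and microglia sums are higher in WT L5 as well. The pan-neuronal sum is lower in WT L5, where 4 of its 10 genes are higher and 6 lower than in WT L6.

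Among the vesicle protein genes, 6 were higher in layer 5, 5 were lower and 1 was not called. Syp, which encodes the abundant vesicle protein synaptophysin, had 95.6, 93.8, 96.4 and 90.4 CPM in WT L5 and 212, 211, 204 and 205 CPM in WT L6. Syngr3 had 49.7, 48.8, 46.7 and 50.5 CPM in WT L5 and 109, 106, 100.3 and 102 CPM in WT L6. Both were lower in every layer 5 library, with log2 fold changes of -1.15 ± 0.028 and -1.10 ± 0.036 (edgeR adjusted p 3.18e-14 and 7.39e-13). The paralog Syngr1 went the other way (log2 fold change 0.53), with 163 ± 4.6 CPM in WT L5 and 112 ± 5.0 CPM in WT L6.

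The SV2 genes differed from each other in direction. Sv2b had 66.8, 69.8, 71 and 67.6 CPM in WT L5, below all WT L6 libraries, with a log2 fold change of -0.60 ± 0.038 (edgeR adjusted p 1.17e-09). Sv2c had 12, 10, 11.4 and 11.4 CPM in WT L5, above all WT L6 libraries, with a log2 fold change of 0.83 ± 0.081 (edgeR adjusted p 1.81e-07). Sv2a was lower with TMM scaling (log2 fold change -0.39, 104, 96, 102 and 99.6 CPM in WT L5) but was not called with pan-neuronal scaling (-0.04). The 3 synapsin genes were all higher in layer 5, with 67.3 ± 2.3, 131 ± 1.7 and 95.5 ± 3.4 CPM for Syn1, Syn2 and Syn3 in WT L5 and 43 ± 2.1, 86.6 ± 3.9 and 70.5 ± 3.2 CPM in WT L6. Among the Rab3 genes, Rab3a was lower (log2 fold change -0.70), Rab3b higher (0.33) and Rab3c not called (-0.02, interval -0.08 to 0.04). With pan-neuronal scaling Rab3c turned to 0.33.

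Among the fusion genes, 12 were higher in layer 5, 4 were lower and 2 were not called. Unc13c, which encodes Munc13-3, a priming factor best known from the cerebellum, had 223, 224, 224 and 225 CPM in WT L5 and 13.5, 12.7, 9.71 and 10.1 CPM in WT L6. It was 19.5-fold higher, a log2 fold change of 4.28 ± 0.080 (edgeR adjusted p 1.58e-15). Its paralogs Unc13a and Unc13b were higher by 0.84 and 0.41 on the log2 scale. Cplx2 had 896, 857, 896 and 858 CPM in WT L5 and 223, 213, 197 and 192 CPM in WT L6, a log2 fold change of 2.08 ± 0.040 (edgeR adjusted p 2.21e-15). Cplx1 was higher by 0.52.

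The synaptotagmin genes spread over both directions. Syt4 had 148, 153, 153 and 155 CPM in WT L5 and 725, 719.8, 699 and 705 CPM in WT L6, 4.71-fold lower with a log2 fold change of -2.23 ± 0.023 (edgeR adjusted p 4.8e-18). Syt5 had 36.3, 32.9, 33.8 and 33 CPM in WT L5 and 100.1, 107, 98.8 and 99 CPM in WT L6, 2.98-fold lower. Syt7 was higher in all layer 5 libraries, with 259, 262, 256 and 256 CPM in WT L5, against 139 to 143 CPM in WT L6, and a log2 fold change of 0.87 ± 0.023 (edgeR adjusted p 6.28e-14). Syt1 was lower with TMM scaling (log2 fold change -0.25) and higher with pan-neuronal scaling (0.10). Syt11 was not called, with 321, 312, 318 and 317 CPM in WT L5 and a log2 fold change of 0.03 (interval -0.02 to 0.07). It was called higher with pan-neuronal scaling (0.37, edgeR adjusted p 7.83e-10) and with a filter on mean CPM (0.072, adjusted p 0.00764), and lower in the authors' normalized table (-0.075, limma adjusted p 0.0354). Syt2 was at the edge of detection, with 0.844 to 1.4 CPM in WT L5 and 1.33 to 1.99 CPM in WT L6, and its libraries overlapped. Its log2 fold change was -0.58 ± 0.21 (edgeR adjusted p 0.0209), and the call was lost with the libraries of each pair summed (adjusted p 0.0528) and with pan-neuronal scaling (log2 fold change -0.23). It was lost as well without WT L5 replicate 2 or 3 or WT L6 replicate 4 (adjusted p 0.0564 to 0.0806), and with layer 5 batch C alone (adjusted p 0.145).

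The other calcium sensors and SNARE genes were higher in layer 5 or were not called. Doc2b had 63.6, 61.2, 65.6 and 59.8 CPM in WT L5, 3.15-fold higher than WT L6, and Doc2a was 2.74-fold higher. Stx1a, the plasma membrane SNARE syntaxin-1A, had 189.9 ± 2.0 CPM in WT L5 and 73.1 ± 1.5 CPM in WT L6, a log2 fold change of 1.37 ± 0.027 (edgeR adjusted p 2.55e-15). The synaptobrevin genes Vamp1 and Vamp2 and Napb were higher by 1.39, 0.85 and 0.91 on the log2 scale. Snap25, the other plasma membrane SNARE, was not called (log2 fold change 0.04, adjusted p 0.0894), although its libraries did not overlap. It was called higher with pan-neuronal scaling (log2 fold change 0.39, edgeR adjusted p 2.81e-09), RLE scaling (adjusted p 0.0209) and a filter on mean CPM (adjusted p 0.00202), and in the authors' normalized table (limma adjusted p 0.00317).

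The active zone genes were nearly all higher in layer 5. Of the 10, 9 were higher, 7 of them over 2-fold, and 1 was lower, with a median log2 fold change of 1.27 beside -0.01 over all genes tested. Ppfia3, which encodes the scaffold protein liprin-alpha-3, had 432, 412, 428 and 417 CPM in WT L5 and 100.4, 96.3, 94.1 and 96.1 CPM in WT L6, a log2 fold change of 2.12 ± 0.027 (edgeR adjusted p 3.32e-17). Bsn had 428, 419, 431 and 419 CPM in WT L5 and 101, 101, 94.7 and 102 CPM in WT L6, a log2 fold change of 2.08 ± 0.027 (edgeR adjusted p 4.43e-17). Rims1 had 143, 155, 148 and 154 CPM in WT L5, 3.45-fold higher than in WT L6. In these 3 genes the layer 5 libraries stood far above every layer 6 library of either genotype.

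Rims2 was 3.33-fold, Pclo 2.77-fold, Rimbp2 2.09-fold and Rims3 2.06-fold higher in layer 5. Rimbp2 had 47.6, 39.1, 42.1 and 43 CPM in WT L5. Erc1 and Erc2 were higher by less, with log2 fold changes of 0.75 ± 0.064 and 0.76 ± 0.025. Ppfia2, which encodes liprin-alpha-2, was the exception, with 204, 213, 204 and 211 CPM in WT L5 and 225, 239, 252 and 246 CPM in WT L6. Its log2 fold change was -0.21 ± 0.033 with TMM scaling (edgeR adjusted p 2.81e-05) and 0.13 with pan-neuronal scaling.

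Of the glutamate transporters, VGLUT1 and VGLUT3 genes were higher and the VGLUT2 gene lower in layer 5. Slc17a7 had 119.5, 119, 117 and 110.1 CPM in WT L5 and was 1.52-fold higher than in WT L6, a log2 fold change of 0.60 ± 0.046 (edgeR adjusted p 1.22e-08). Slc17a6 had 24.1, 25.6, 23.1 and 25.3 CPM in WT L5 and was 1.82-fold lower, a log2 fold change of -0.86 ± 0.044 (edgeR adjusted p 1.08e-10). Slc17a8 had 2.98, 3.63, 3.76 and 3.54 CPM in WT L5 and was 7.75-fold higher. No layer 5 library overlapped WT L6 in any of the 3 genes. The ratio of Slc17a7 to Slc17a6 CPM was 4.95, 4.63, 5.08 and 4.35 in WT L5, above all 8 layer 6 libraries.

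**Figure D5:**
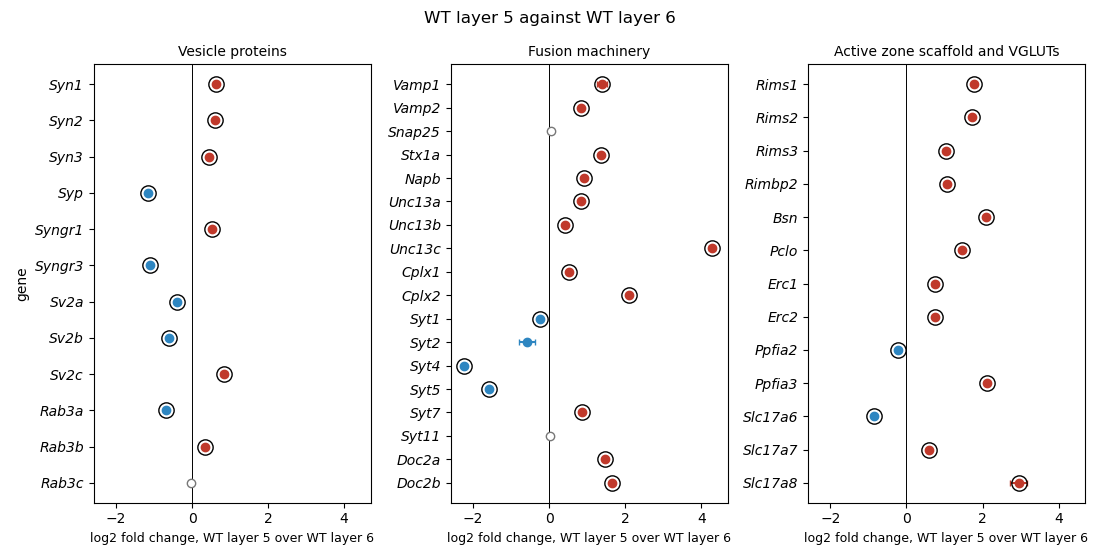
Log2 fold change of each of the 43 members between WT L5 and WT L6 (x axis), with genes grouped by role down the y axis and bars showing the standard error. Filled red points were called higher (29), filled blue points lower (11) and open grey points were not called (3), and a black ring marks members still called with the libraries of each pair summed (39).

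Both comparisons use the same WT L6 libraries, so their values are given side by side and not as independent evidence. The same cross-count was not made over all genes, so the counts below describe the members and have no background beside them. Of the 29 members higher in layer 5, 6 were also higher in null L6, 5 were lower there and 18 were not called. Of the 11 lower in layer 5, 2 were higher in null, 1 was lower and 8 were not called. Of the 3 not called in layer 5, Rab3c was higher in null and 2 were called in neither comparison with TMM scaling (Snap25 and Syt11). Doc2b averaged 33.4 ± 0.86 CPM in null L6, 62.5 ± 2.5 CPM in WT L5 and 19.8 ± 0.53 CPM in WT L6. The other members higher in both comparisons, Slc17a8, Cplx1, Rims1, Rims2 and Pclo, showed the same order of groups. Slc17a7 averaged 56.1 ± 2.4 CPM in null L6, 116 ± 4.3 CPM in WT L5 and 76.4 ± 5.4 CPM in WT L6, and Rimbp2, Syt7, Syn2 and Sv2c showed that order too. Sv2b, the 1 member lower in both, averaged 69.6 ± 3.5 CPM in null L6, 68.8 ± 1.9 CPM in WT L5 and 104 ± 5.0 CPM in WT L6.

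A wider list of 89 other presynaptic genes gave the surroundings of the members. Between null and WT L6, 9 rose and 11 fell of 86 tested, beside 7.31% and 6.86% of all genes, with a median log2 fold change of -0.01. Rab27b, a small GTPase of vesicle trafficking, had 12.6 ± 0.90 CPM in null L6 and 7.26 ± 0.57 CPM in WT L6 (log2 fold change 0.79, edgeR adjusted p 2.73e-05). Slc30a3, the zinc transporter of glutamatergic vesicles, had 0.316 ± 0.098 CPM in null L6 and 1.20 ± 0.44 CPM in WT L6 (log2 fold change -1.92, adjusted p 0.0018). Snph, encoding the mitochondrial anchor syntaphilin, and Cadps, a priming factor of dense-core vesicles, rose by 0.49 and 0.24 on the log2 scale. Ppfibp1, a liprin-beta gene, and Gpr158, a receptor of synaptic adhesion, fell by 0.24 and 0.44, and the endocytosis genes Dnm1 and Cltc, for dynamin and clathrin heavy chain, rose by 0.15 and 0.12.

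Between layers, 55 of 87 other presynaptic genes tested were higher in layer 5 and 25 lower, beside 42.2% and 43.4% of all genes. In either direction 85.5% of all genes were called. The median log2 fold change was 0.30 over these genes and -0.01 over all genes. Ppfia4, a further liprin-alpha gene, had 167 ± 2.3 CPM in WT L5 and 28.9 ± 1.9 CPM in WT L6, and Snph had 230.3 ± 11 CPM in WT L5 and 42.5 ± 2.5 CPM in WT L6. Apba1, encoding the Munc18-binding adaptor Mint1, had 563 ± 12 CPM in WT L5 and 185 ± 3.5 CPM in WT L6. Syt13, Rab27b and the endocytic adaptor gene Ston2 were higher by 1.84, 1.83 and 1.81 on the log2 scale, and Ap2a2, a subunit of the clathrin adaptor, by 0.66. Svop, a relative of the SV2 genes, was lower by a log2 fold change of -0.58, and it had 86.4 ± 2.5 CPM in WT L5 and 128 ± 2.7 CPM in WT L6. The edgeR adjusted p of these 8 genes was 1.83e-10 or less.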

How the data were processed

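Gene counts deposited by the authors, whole reads per gene for 24015 genes, were used for 12 RNA libraries. Per the submitters' processing notes, STAR 2.5.2b and HTSeq were named for the RNA samples, with build mm9. The sources used here do not give the gene annotation or whether counting used strand. Per the labels' protocols, libraries came from a stranded total RNA kit with removal of ribosomal RNA. Another table, also deposited by the authors, has scores, rounded values for 14567 genes with a median of 23 in every column, and served only as an alternative, as log2 of the score plus 1. All columns matched a sample (0 unmatched). The ChIP-seq peak lists, in mm9, were not used, since no gene positions of that build were at hand.

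Groups, replicates and batches came from the labels. Null L6 and WT L5 were each compared with WT L6 in edgeR 4.0.16 (R 4.3.3), with TMM scaling, filterByExpr and a quasi-likelihood test of 2 groups at a time, and Benjamini-Hochberg adjustment over all genes tested (threshold 0.05). CPM values were scaled over all 12 libraries, and means are given with the SD of 4 libraries. Intervals are approximate 95% intervals of the log2 fold change, from its standard error and a normal distribution. With so few libraries this tends to make them too narrow. Scripts were tested on simulated data. Depth was 27465597 to 54899002 counts per library, which limits the precision for rare genes.

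The members and lists were chosen with earlier results of these data known. Values per library were given for the glutamate transporters, synapsins, SV2 genes and synaptotagmins, for up to 3 called members with the highest absolute log2 fold change and a mean of at least 1 CPM per role and comparison, and for the 1 closest to 0 per role. Further members were given where a pair of libraries stood apart. Of other presynaptic genes, up to 2 per list with the smallest adjusted p were named. Alternatives were DESeq2 1.42.0, RLE and pan-neuronal scaling, other filters, all 3 groups in 1 fit, a replicate block, summed pairs, limma 3.58.1 with pairs as a random block (estimated correlation 0.407 and 0.428), a test against a fold of 1.5, each library left out, and layer 5 batches alone. Fits with only replicates 1 and 2 or 3 and 4 of a layer 6 group were chosen after seeing the data. Promoter sequences were taken from RefSeq (GRCm38.p6).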

Additional observations from a re-analysis of the deposited data

Results flagged for a closer look

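Among 129 sets of 4 libraries (43 members in 3 groups), 7 had 1 library far from the other 3, by the gap to the nearest library over the range (Dixon's test). Chance flags about 1 in 20 such sets. In null L6, Sv2c was at 4.92 CPM in replicate 1, against 3.5 to 3.65 CPM in the others, and Ppfia2 was at 271 CPM in replicate 1, against 247 to 251 CPM. Unc13b was lowest in null replicate 2, at 63.5 CPM, with 66.9 to 67.5 CPM in the others. In WT L5, Rims3 was at 28.5 CPM in replicate 1, with 26.6 to 26.8 CPM in the others, and Pclo was at 258 CPM in replicate 4, with 272 to 274 CPM in the others. In WT L6, Syt5 was at 107 CPM in replicate 2, with 98.8 to 100.1 CPM in the others, and Slc17a8 was at 0.218 CPM in replicate 3, with 0.488 to 0.541 CPM in the others.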

How the results depend on the processing

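In null against WT L6, 15 members, 2068 genes and 20 other presynaptic genes were called. With the libraries of each pair summed these were 5 members (1 higher), 479 genes and 2 others. With a test against a fold of 1.5 they were 1 member (1 higher, 0 lower), 147 genes and 1 other. Limma with pairs as a random block gave 13 members (7 higher, 6 lower), 1277 genes and 10 others. With the replicate number as a block, 14 members, 1526 genes and 12 others were called. The numbers do not pair the samples: deviations of same-numbered libraries correlated at -0.125 to -0.0683 there and -0.0139 to 0.00375 between layers, and the block changed no call on a member but that on Slc17a8. The authors' normalized table gave 15 members, with Unc13b added and Syt4 lost, and 12 others beside 1614 genes. WT L6 replicates 3 and 4 alone gave 5 members higher and 11 others beside 1506 genes. Leaving out 1 library gave 14 to 16 members, 7 to 9 higher, 6 to 7 lower, 1632 to 1838 genes and 13 to 17 others, the 13 without null replicate 2 or without WT L6 replicate 1. Other alternatives gave more calls. With all 3 groups in 1 fit these were 21 members (13 higher, 8 lower), 2659 genes and 25 others, with Snap25, Napb, Unc13b, Unc13c, Syt11 and Bsn added. DESeq2 gave 16 members and 2422 genes. Null replicates 1 and 2 alone gave 19 members and 2192 of 14855 genes, with Syn3, Rab3b, Stx1a, Syt11 and Erc2 added and Slc17a8 lost. Null replicates 3 and 4 alone gave 19 members and 1943 of 14785 genes, with Syp, Snap25, Unc13b, Cplx2 and Slc17a6 added and Rims1 lost. No added member was shared by the null pairs. Of the 15 members, 5 kept their call in every alternative but the test against a fold of 1.5, and 1 (Doc2b) in all.

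In layer 5 against layer 6, pan-neuronal scaling left 7 members lower and turned Rab3c (0.33), Syt1 (0.10) and Ppfia2 (0.13). It also brought calls on Snap25 (0.39) and Syt11 (0.37), and the authors' normalized table turned Syt11 (-0.075). The test against a fold of 1.5 gave 6 members lower, 6371 genes and 31 others. Leaving out 1 library gave 39 to 40 members, 29 higher, 10 to 11 lower, 12520 to 12850 genes and 79 to 81 others. Of the 40 members, 27 kept their call in every alternative and 36 in all but the test against a fold. The cause was not tested for any of these. Alternatives on the ChIP-seq peaks were not run. Depth limits Slc17a8, Syt2 and Vamp1, with as few as 10, 26 and 49 counts in a library.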

Other observations

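Libraries of a group differed by pair in many genes, members included, and the pairs were themselves chosen as the closest libraries. The median absolute log2 difference between pairs was 0.0946 over members and 0.0934 over all genes in null L6. It was 0.0456 and 0.0708 in WT L5, and 0.0842 and 0.085 in WT L6. The lowest CPM of 1 pair was above the highest of the other in 27 of 43 members in null L6, 25 in WT L5 and 32 in WT L6, beside 53.7%, 55.4% and 53.9% of 14480 genes. Between the null pairs, Syt11 differed by 1.55-fold and Rab3b by 1.31-fold, with 41.3 and 46 CPM in replicates 1 and 2 and 32.8 and 33.6 CPM in replicates 3 and 4. In WT L6, Unc13c had 13.5 and 12.7 CPM in replicates 1 and 2 and 9.71 and 10.1 CPM in replicates 3 and 4. The WT L6 pairs differ in sex and so hold different animals, while Xist and the Y-linked sum were alike in both pairs of null L6 and of WT L5, and whether those pairs differ by animal, sort or library was not tested.

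Summed over the 43 members, levels were 5153 to 5527 CPM in null L6, 7187 to 7307 CPM in WT L5 and 5058 to 5159 CPM in WT L6. The vesicle protein genes summed to 1375 to 1411 CPM in null L6, 1189 to 1227 CPM in WT L5 and 1353 to 1384 CPM in WT L6. The fusion genes summed to 2611 to 2929 CPM in null L6, 3509 to 3566 CPM in WT L5 and 2566 to 2606 CPM in WT L6.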
